A study of Mus musculus with 24 samples.

Results

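The subject of this account is a set of 4 mouse glycosyltransferase genes, B3gnt2, B3gnt3, B3gnt5 and B3gnt7, of the 54432 genes in the expression tables. They were found by matching the Ensembl identifiers to their symbols in GENCODE M21, and all 4 passed the filter on low counts that left 29743 genes for testing. The members were chosen by their measured levels and dDAVP effects in these same libraries, so the dDAVP effects of the 4 genes are given here as a description, without a test. Expression was measured by RNA sequencing in mpkCCD cells, wild-type epithelial cells of the cortical collecting duct (C57BL/6 mouse kidney) at passage 10 to 11. dDAVP, a synthetic vasopressin that acts on the V2 receptor, was given on the basolateral side for 3, 6, 12 or 24 h at a dose that the labels write as 0.1 M. Control cells received vehicle for the same 4 times. All cells were grown for 6 days on permeable filters, the last step before treatment being 24 h of minimal medium, and each of the 8 groups held 3 libraries, 24 in all. The cells are 1 line, and the labels do not say that libraries came from separate cultures. The p-values therefore measure the spread between libraries, which may be technical.

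The B3GNT enzymes add N-acetylglucosamine in a beta-1,3 linkage to a terminal galactose. By alternating with beta-1,4-galactosyltransferases they build chains of repeated N-acetyllactosamine on glycoproteins and glycolipids. B3GNT2 is the main maker of these poly-N-acetyllactosamine chains on N-glycans, and B3GNT3 extends core 1 O-glycans. B3GNT5 makes lactotriaosylceramide, the precursor of the lacto- and neolacto-series glycolipids. B3GNT7 extends keratan sulfate, in which the chain also carries sulfate.

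The 4 genes lie on different chromosomes (GRCm38, GENCODE M21). B3gnt7 (ENSMUSG00000079445) runs from base 86302832 to 86307305 on the plus strand of chromosome 1, and its longest transcript has 2 exons and 2582 bases. B3gnt2 (ENSMUSG00000051650) runs from 22759738 to 22860961 on the minus strand of chromosome 11. B3gnt3 (ENSMUSG00000031803) runs from 71690756 to 71701789 on the minus strand of chromosome 8, with 1 annotated transcript of 3 exons. B3gnt5 (ENSMUSG00000022686) runs from 19760208 to 19772753 on the plus strand of chromosome 16, with 7 annotated transcripts. The members share 0 stretches of 31 bases among their transcripts, so no such stretch of 1 member could be assigned to another.

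The 250 bases before the RefSeq start of each gene are shown because the 4 genes belong to 1 family and their dDAVP values differ. The windows lie at chr1:86302971-86303220 on the plus strand for B3gnt7, chr11:22859736-22859985 on the minus strand for B3gnt2, chr8:71701801-71702050 on the minus strand for B3gnt3 and chr16:19759984-19760233 on the plus strand for B3gnt5 (RefSeq, GRCm38.p6). Capitals mark TGACG or its reverse complement CGTCA, the short form of the cAMP response element (CRE), and each sequence reads 5′ to 3′ along the strand of its gene. The annotations differ in where the genes start: by the GENCODE coordinates above, the windows of B3gnt7 and B3gnt2 lie inside the genes, that of B3gnt5 reaches into its gene, and that of B3gnt3 lies before its gene.
B3gnt7: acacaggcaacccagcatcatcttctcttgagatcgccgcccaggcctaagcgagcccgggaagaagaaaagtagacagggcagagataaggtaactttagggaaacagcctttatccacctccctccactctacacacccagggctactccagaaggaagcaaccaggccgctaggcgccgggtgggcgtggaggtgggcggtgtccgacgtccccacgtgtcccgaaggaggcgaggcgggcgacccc
B3gnt2: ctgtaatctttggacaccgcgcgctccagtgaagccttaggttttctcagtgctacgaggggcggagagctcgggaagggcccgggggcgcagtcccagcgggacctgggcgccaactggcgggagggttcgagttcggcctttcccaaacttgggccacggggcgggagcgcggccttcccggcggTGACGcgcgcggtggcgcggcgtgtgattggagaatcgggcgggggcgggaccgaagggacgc
B3gnt3: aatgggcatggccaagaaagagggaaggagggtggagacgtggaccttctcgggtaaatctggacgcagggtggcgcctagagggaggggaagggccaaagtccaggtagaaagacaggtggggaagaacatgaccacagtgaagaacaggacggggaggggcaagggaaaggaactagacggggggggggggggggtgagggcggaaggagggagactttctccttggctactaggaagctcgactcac
B3gnt5: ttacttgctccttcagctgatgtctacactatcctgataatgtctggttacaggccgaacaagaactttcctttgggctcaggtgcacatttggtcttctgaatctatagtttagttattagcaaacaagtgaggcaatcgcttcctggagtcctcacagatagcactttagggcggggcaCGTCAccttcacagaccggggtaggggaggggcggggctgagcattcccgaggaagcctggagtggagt
Both strands of these windows and of 32536 RefSeq windows of the same length were searched for 4 motifs. The full CRE, TGACGTCA, was in 0 of the 4 windows and in 1.56% of all windows. Its short form, which lies inside the full one, was in 2 of the 4 windows and in 17.9% of all windows. The copy of B3gnt2 lies 63 to 59 bases before the start, and that of B3gnt5 lies 69 to 65 bases before it, on the other strand. The AP-1 motif TGANTCA was in 0 of the 4 and in 6.73% of all windows. The nuclear receptor motif NBRE, searched as AAAGGTCA and TGACCTTT, was in 0 of the 4 and in 1.35% of all windows. The B3gnt7 window held none of the 4 motifs. The share of G and C was 61.6% for B3gnt7, 70.0% for B3gnt2, 60.0% for B3gnt3 and 51.2% for B3gnt5, beside a median of 52.4% over all windows. CpG dinucleotides numbered 16, 31, 8 and 7 in the same order, beside a median of 6.

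Libraries held 17.25 to 27.64 M (mega) estimated counts. The markers fitted the labelled cell type: 13 of 16 principal cell and collecting duct markers averaged at least 1 TPM, the exceptions being Aqp4, Scnn1b and Elf5. TPM is transcript abundance scaled for length and to the same total in every library. The summed level of the 16 was 2000 to 2270 TPM in dDAVP libraries and 1860 to 2290 TPM in vehicle libraries. The summed level of the markers of each of 6 other types, intercalated, proximal tubule, thick ascending limb and distal, fibroblast, endothelial and immune cells, reached at most 9.31 TPM in dDAVP libraries and 9.7 TPM in vehicle libraries. Of the fibroblast markers 0 averaged at least 1 TPM, and of each other list 1 did. These lists hold 4 to 7 genes, so their sums and that of the 16, which include Aqp2, are of unlike size. Aqp2, the vasopressin-regulated water channel, was higher in dDAVP by 4.38 ± 0.165, 5.29 ± 0.172, 4.31 ± 0.164 and 5.35 ± 0.171 (log2 fold change ± SE) at 3, 6, 12 and 24 h. Receptor genes of smell (1457 olfactory and vomeronasal genes) took a share of the counts that ranged over the libraries between 0.135% and 0.901%. At 6 h this share was 0.196% ± 0.0724 in dDAVP and 0.526% ± 0.0729 in vehicle libraries (SD, n = 3 each), and over the other times it overlapped between the groups. Since this share moved with treatment at 6 h, the dDAVP effects of the members at each time are also given from a second model. This model, called the receptor-share model, holds the share as a covariate. For other genes it is given where named, and all other effects come from the count model, which leaves the share out. The part of this share in the results was not tested.

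B3gnt7 stood at a higher level in dDAVP than in vehicle libraries at every time. Normalised counts are given as CPM, counts scaled to the TMM size of their library, which compare libraries for 1 gene. At 3 h B3gnt7 had 34.3, 45.3 and 44.8 CPM in dDAVP libraries, against 3.63, 5.95 and 6.01 CPM in vehicle libraries. At 6 h the values were 29.7, 28.1 and 29.6 CPM in dDAVP and 5.98, 5.63 and 5.69 CPM in vehicle. The lowest dDAVP library at these times was several-fold above the highest vehicle library, and the spread within a group was small beside the gap. At 12 h B3gnt7 had 35.7, 34.4 and 33.0 CPM in dDAVP and 6.84, 9.37 and 8.72 CPM in vehicle. At 24 h it had 29.3, 33.8 and 34.8 CPM in dDAVP and 7.81, 9.18 and 7.05 CPM in vehicle. The groups overlapped at none of the 4 times. Of all genes tested, 0.303% (90 genes) were likewise higher in every dDAVP than in every vehicle library at all 4 times. Groups that did not overlap in either direction were found for 12.1%, 63.0%, 4.71% and 10.2% of all genes at 3, 6, 12 and 24 h. These CPM came from 506 to 1041 estimated counts of B3gnt7 in dDAVP libraries and 88 to 199 in vehicle libraries.

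**Figure D1:**
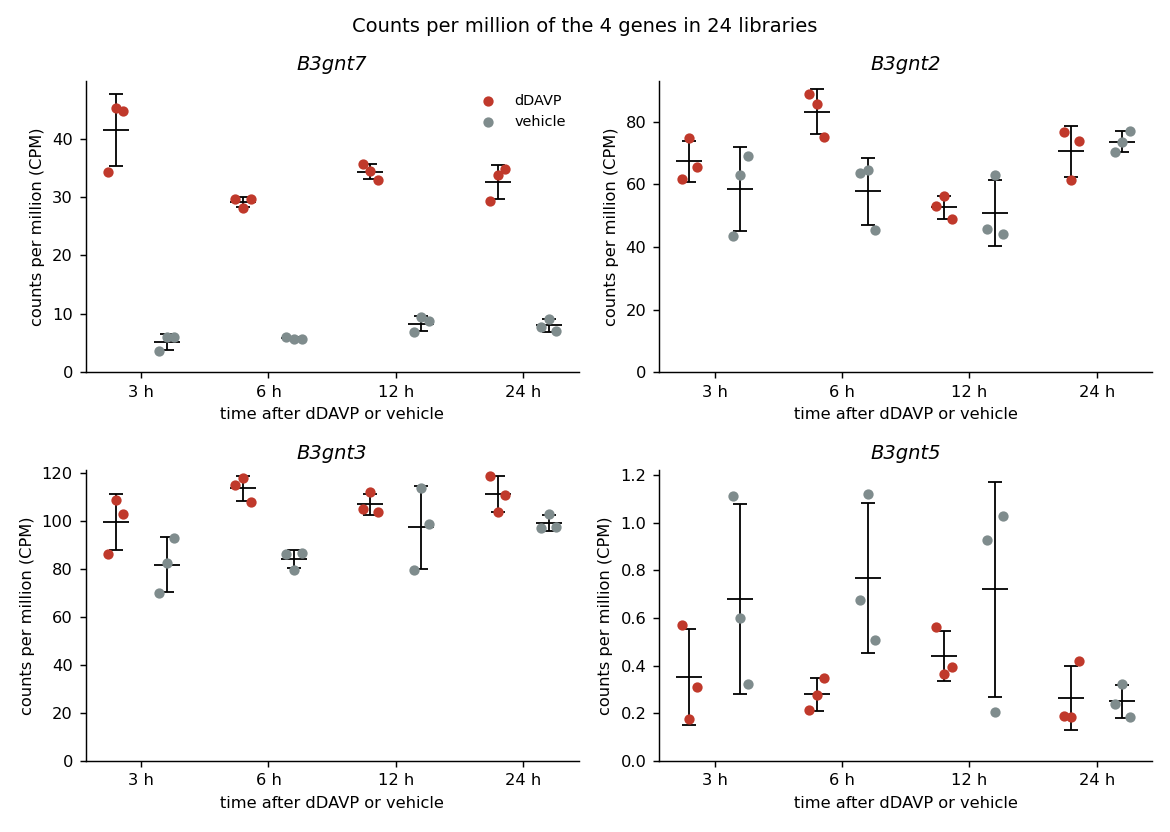
Normalised counts (CPM, TMM library sizes) of B3gnt7, B3gnt2, B3gnt3 and B3gnt5 by time, with dDAVP in red and vehicle in grey; each point is 1 library, and bars are the mean and SD of 3. The dDAVP libraries of B3gnt7 lie between 28.1 and 45.3 CPM and its vehicle libraries between 3.63 and 9.37 CPM, whereas the groups of the other genes overlap at some or most times.

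On the log2 scale the difference of B3gnt7 between dDAVP and vehicle was 3.00 ± 0.164 at 3 h, 2.34 ± 0.162 at 6 h, 2.05 ± 0.157 at 12 h and 2.02 ± 0.157 at 24 h (SE). These are 7.99-, 5.05-, 4.15- and 4.07-fold higher levels in dDAVP. The receptor-share model gave 2.85, 2.04, 2.00 and 1.99, so the value at 6 h was the one that moved most. The effect at 3 h was the largest of the 4. Relative to it, the effect was smaller by 0.66 ± 0.224 at 6 h, 0.95 ± 0.22 at 12 h and 0.98 ± 0.22 at 24 h in log2 units. In the receptor-share model these differences from 3 h were -0.82, -0.85 and -0.86, so the steps after 6 h were smaller there. In CPM both arms entered the difference between 24 h and 3 h. The mean dDAVP level was 41.5 CPM at 3 h and 32.6 CPM at 24 h. The mean vehicle level was 5.2 CPM at 3 h and 8.02 CPM at 24 h. The vehicle part depended on scaling: the rise was 0.63 ± 0.165 log2 units in the count model (SE). It was 0.34 in the receptor-share model and 0.10 on the log2(TPM + 1) scale.

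B3gnt2, the main poly-N-acetyllactosamine synthase, had dDAVP and vehicle levels that overlapped at 3, 12 and 24 h. At 6 h it had 88.9, 85.8 and 75.1 CPM in dDAVP and 63.5, 64.5 and 45.4 CPM in vehicle, without overlap. Its log2 differences were 0.21 ± 0.157, 0.53 ± 0.157, 0.05 ± 0.157 and -0.06 ± 0.156 at 3, 6, 12 and 24 h (SE). They were 0.08, 0.24, 0.01 and -0.09 in the receptor-share model. B3gnt3, which extends core 1 O-glycans, had 115, 118 and 108 CPM in dDAVP and 86.4, 79.8 and 86.5 CPM in vehicle at 6 h. At 24 h it had 119, 104 and 111 CPM in dDAVP and 97.2, 103 and 97.4 CPM in vehicle. The groups did not overlap at these times, though the gap at 24 h was narrow, and they overlapped at 3 and 12 h. The log2 differences of B3gnt3 were 0.28 ± 0.119, 0.43 ± 0.119, 0.14 ± 0.119 and 0.17 ± 0.119 at 3, 6, 12 and 24 h (SE), and 0.14, 0.13, 0.09 and 0.14 in the receptor-share model.

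The small values of both genes depended on scaling. In TPM, B3gnt2 averaged 13.9 ± 1.39 in dDAVP and 14.1 ± 3.41 in vehicle at 6 h, and B3gnt3 averaged 17.6 ± 1.03 in dDAVP and 18.7 ± 0.984 in vehicle (SD, n = 3 each). On the log2(TPM + 1) scale the difference of B3gnt3 was -0.09 at 6 h, and those of B3gnt2 and B3gnt3 at 3 h were -0.08 and -0.04, opposite in sign to those from counts. The median of all genes tested at 6 h was -0.39 in the count model and 0.04 in the receptor-share model. For B3gnt7 the sign was the same on each of these scales.

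B3gnt5, the lactotriaosylceramide synthase, was close to the limit of detection, with 3 to 13 estimated counts in dDAVP libraries and 4 to 27 in vehicle libraries. At 6 h it had 0.212, 0.277 and 0.348 CPM in dDAVP and 0.676, 1.12 and 0.509 CPM in vehicle, without overlap. At 3, 12 and 24 h the groups overlapped. Its log2 differences of -0.95 ± 0.56, -1.44 ± 0.578, -0.70 ± 0.548 and 0.10 ± 0.651 at 3, 6, 12 and 24 h had the widest errors of the 4 genes (SE). They were -0.10, 0.14, -0.12 and 0.23 in the receptor-share model. The count that stood behind 1 TPM of B3gnt5 varied 6.55-fold between libraries, whereas it varied between 1.31- and 1.34-fold for the other members. The cause of this variation was not tested, since gene sums do not tell the transcripts of B3gnt5 apart.

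Against the threshold used for all other genes (adjusted p under 0.05 in edgeR's quasi-likelihood test), B3gnt7 was past it at each time, which is 1 of the 4 members at 3 h, where 0.484% of all genes passed. At 6 h 3 of the 4 passed, B3gnt7, B3gnt2 and B3gnt3, with 38.1% of all genes. At 12 and 24 h 1 of the 4 passed, with 0.0773% and 0.0841% of all genes. With receptor share in the model these background shares were 0.723%, 0.336%, 0.296% and 0.35%, and B3gnt7 was the 1 member past the threshold at each time. Because the dDAVP effect chose the genes, nothing is read from these counts of members.

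**Figure D2:**
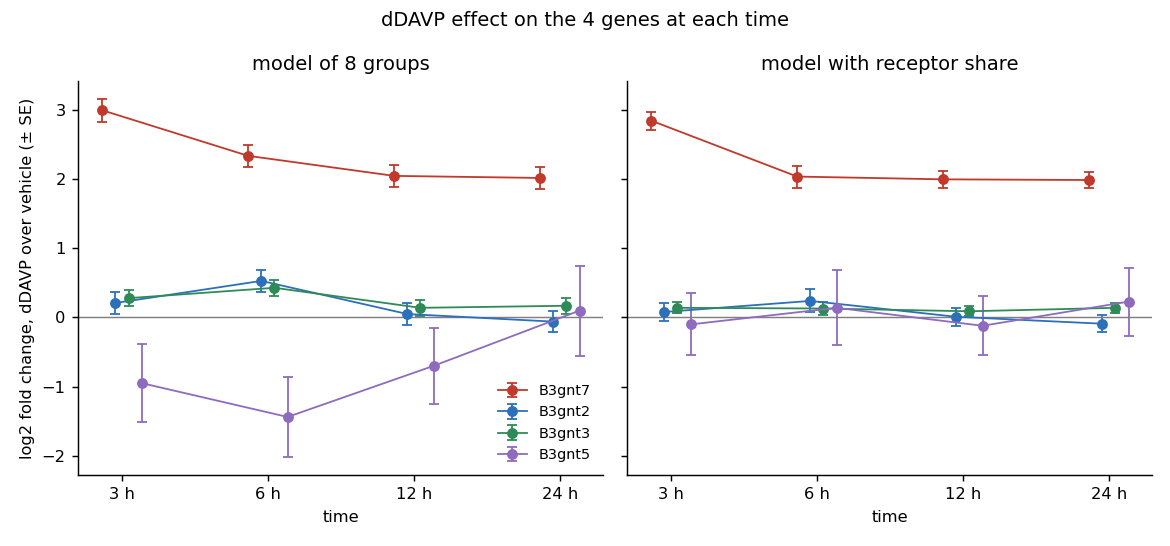
Log2 fold change of dDAVP over vehicle with its SE (edgeR, 24 libraries) at each time for B3gnt7, B3gnt2, B3gnt3 and B3gnt5, from the model of 8 groups (left) and with receptor share as a covariate (right). B3gnt7 lies between 1.99 and 3.00 in both panels, while B3gnt2 and B3gnt3 lie between -0.09 and 0.53.

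Per length, B3gnt7 was well below B3gnt3 and B3gnt2 in vehicle and closer to them in dDAVP. In TPM the order B3gnt3, B3gnt2, B3gnt7, B3gnt5 held in all 24 libraries. B3gnt7 averaged 10.2 ± 0.668, 5.49 ± 0.573, 8.22 ± 0.992 and 7.02 ± 0.583 TPM in dDAVP at 3, 6, 12 and 24 h, against 1.63 ± 0.279, 1.59 ± 0.144, 2.16 ± 0.127 and 1.81 ± 0.0833 TPM in vehicle (SD, n = 3 each). Over all times B3gnt3 ranged between 16.8 and 23.0 TPM in dDAVP and between 17.3 and 21.1 TPM in vehicle. B3gnt2 ranged between 9.39 and 15.7 TPM in dDAVP and between 9.92 and 17.4 TPM in vehicle. B3gnt5 ranged between 0.125 and 0.458 TPM in dDAVP and between 0.0423 and 1.4 TPM in vehicle. Pooled over the times, the range of B3gnt7 overlapped that of B3gnt2 in dDAVP, at 4.83 to 10.6 TPM, and that of B3gnt5 in vehicle, at 1.36 to 2.28 TPM. The pooled ranges of B3gnt3 and B3gnt2 overlapped in vehicle.

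A ratio of 2 genes within a library does not depend on library size. B3gnt7 amounted to 69.2% ± 7.66, 39.5% ± 4.46, 73.5% ± 3.99 and 53.2% ± 10.3 of the TPM of B3gnt2 in dDAVP at 3, 6, 12 and 24 h. In vehicle it amounted to 10.3% ± 0.821, 11.6% ± 2.12, 19.1% ± 3.34 and 12.3% ± 2.1 (SD, n = 3 each). Every dDAVP library, at 36.2% or more, lay above every vehicle library, at 22.9% or less. B3gnt2 shares sequence with an overlapping gene, described below, so ratios that include it are uncertain. Against B3gnt3, B3gnt7 amounted to 28.7 to 53.1% in dDAVP and 6.47 to 11.0% in vehicle over all times. B3gnt2 as a share of B3gnt3 overlapped widely, at 51.8 to 82.8% in dDAVP and 47.8 to 88.8% in vehicle.

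**Figure D3:**
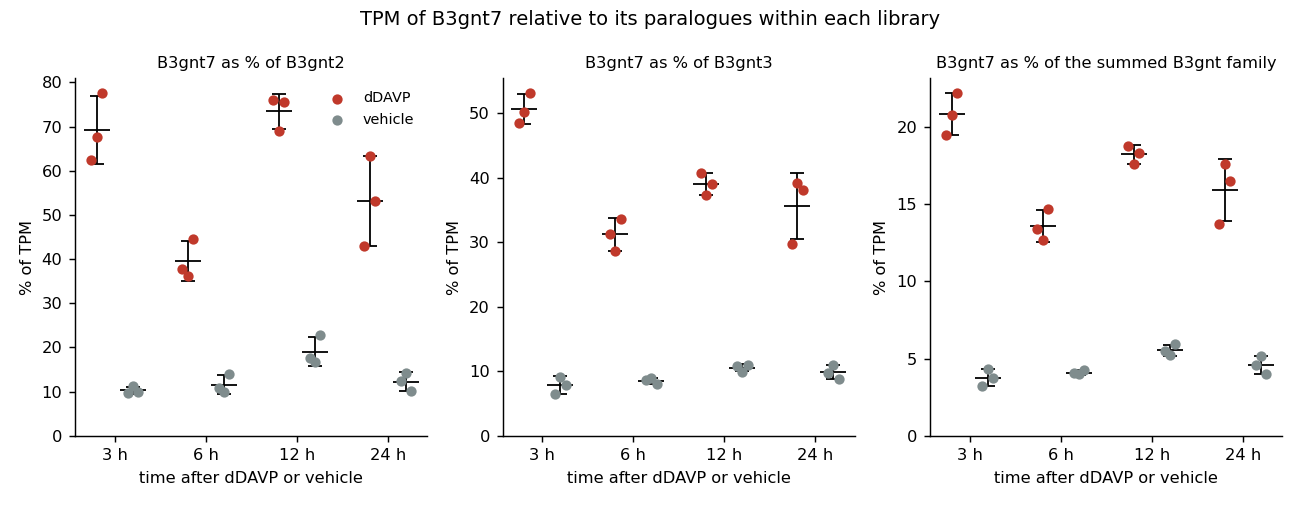
TPM of B3gnt7 as a percentage of B3gnt2, of B3gnt3 and of the summed TPM of the 9 genes named B3gnt or B3gntl in each library, by time, with dDAVP in red and vehicle in grey; each point is 1 library, and bars are the mean and SD of 3. B3gnt7 holds 12.7 to 22.2% of the family's TPM in dDAVP libraries and 3.2 to 5.94% in vehicle libraries.

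B3gnt7 thus held 20.8%, 13.6%, 18.2% and 15.9% of the family's TPM in dDAVP at 3, 6, 12 and 24 h, against 3.76%, 4.1%, 5.55% and 4.58% in vehicle. The family's sum was 44.7 ± 4.69 TPM in dDAVP and 40.3 ± 3.22 TPM in vehicle over all times (SD, 12 libraries each, which mix times). TPM is a share of a fixed total, and 1 short RNA gene, Gm24245, held 44.2 to 51.7% of it in dDAVP libraries and 37.4 to 49.5% in vehicle libraries. The ratios between genes of 1 library are not touched by that gene.

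The vehicle libraries also differed over time. They are one side of the dDAVP effects that chose the genes, so the values of the members over time are a description, without a test. B3gnt7 was higher in vehicle at 24 h than at 3 h by 0.63 ± 0.165 log2 units (SE), with 7.81, 9.18 and 7.05 CPM at 24 h and 3.63, 5.95 and 6.01 CPM at 3 h. All 24 h libraries lay above all 3 h libraries. The difference was 0.34 in the receptor-share model and 0.10 on the log2(TPM + 1) scale, and mean receptor share was 0.226% in vehicle at 24 h and 0.629% at 3 h. At 12 h against 3 h the difference of B3gnt7 was 0.68 ± 0.165, and at 6 h against 3 h it was 0.15 ± 0.169.

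The paralogues differed between 24 h and 3 h in vehicle by 0.34 ± 0.156 for B3gnt2, 0.28 ± 0.119 for B3gnt3 and -1.44 ± 0.586 for B3gnt5. In the receptor-share model these differences were 0.08, -0.01 and 0.28, and on the log2(TPM + 1) scale they were -0.08 for B3gnt2 and -0.17 for B3gnt3. None of the 3 paralogues kept its sign on each of these scales. Aqp2 in vehicle differed by -0.06 ± 0.17 between 24 h and 3 h (adjusted p = 0.765 in edgeR).

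Overlapping annotation bears on B3gnt2. Of its 4147 distinct stretches of 31 transcript bases, 2679 (64.6%) also occur in other genes, mostly in Gm28048, an annotated protein-coding gene on the same strand (22834744 to 22982090 on chromosome 11). Gm28048 was assigned 226 to 725 estimated counts a library, which was 11.9 to 42.5% of the sum of both genes. The counts of B3gnt2, and the ratios and family shares that include it, are therefore uncertain. Summed, both genes had 90.5 ± 9.3, 107 ± 9.28, 83.0 ± 5.69 and 102 ± 2.46 CPM in dDAVP at 3, 6, 12 and 24 h. In vehicle they had 77.7 ± 10.6, 79.1 ± 0.934, 71.5 ± 13.2 and 89.0 ± 1.69 CPM (SD, n = 3 each). The groups of this sum did not overlap at 6 and 24 h and overlapped at 3 and 12 h. B3gnt7 shared 461 of 4134 such stretches (11.2%) with its antisense neighbour Gm28626, whose counts were at most 0.451% of the sum of both, and the library kit does not mark strand. B3gnt3 shared 2.45% and B3gnt5 0.

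The other genes of the family were followed through a list of 6. B3gnt4, which can make poly-N-acetyllactosamine, B3gnt6, the core 3 O-glycan synthase, B3gnt8, a partner of B3GNT2, and B3gnt9 stayed under 1 TPM in all libraries. B3gntl1 lay between 2.42 and 3.84 TPM. B4gat1, once called B3gnt1 and now known as a glucuronyltransferase of dystroglycan glycans, lay between 14.3 and 21.8 TPM. None of the 6 was called at 3, 12 or 24 h in edgeR or DESeq2, and none had an unadjusted p under 0.05 in edgeR at those times. Of all genes tested, 0.484%, 0.0773% and 0.0841% were called in edgeR at 3, 12 and 24 h. The lack of a call among 6 genes therefore says little about them. DESeq2 called 2 of the 6 at 6 h, and 2 in vehicle at 24 h against 3 h. In edgeR 38.1% of all genes were called at 6 h, and 38.0% in vehicle at 24 h against 3 h. At 6 h B3gntl1 rose by 0.39 ± 0.136 and B4gat1 by 0.32 ± 0.109, and B3gnt6 fell by 1.94 ± 0.762 on the log2 scale (adjusted p = 0.033, 0.0311 and 0.0474 in edgeR). In the receptor-share model none of the 6 was called at any time, where 0.296% to 0.723% of all genes were. In vehicle B3gntl1 and B4gat1 rose between 3 h and 24 h by 0.56 and 0.47 (adjusted p = 0.00784 and 0.00704 in edgeR), a call also lost in the receptor-share model.

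The enzymes, substrates and readers around the B3GNT reaction were followed through 12 lists with 114 genes, 113 of them tested, including the 6 above. At 3 h 1 of the 113 (0.885%) was called, beside 0.484% of all genes. The called gene, higher in dDAVP, was Galnt7, a gene of mucin-type O-glycan synthesis. It had 11.9 CPM in dDAVP and 6.13 CPM in vehicle (0.96 ± 0.175, adjusted p = 0.00494 in edgeR). It was also called in the receptor-share model (0.87). No pathway gene was called at 3 h when replicate 1 of vehicle, or replicate 2 or 3 of dDAVP, at 3 h was left out, and 3 were called without replicate 1 of dDAVP at 3 h or without replicate 1 or 2 of vehicle at 12 h. At 12 and 24 h 0 of the 113 were called by edgeR and 0 by DESeq2, while 11 and 7 had an unadjusted p under 0.05 in edgeR. Of all genes, 0.0773% and 0.0841% were called by edgeR at these times, so 0 of 113 says little about the lists. The highest pathway value was 0.96, 1.23, 0.43 and 1.2 at 3, 6, 12 and 24 h, the last in B3gnt4 with an SE of 0.762, beside 3.00, 2.34, 2.05 and 2.02 for B3gnt7. The lowest was -1.29 ± 0.833, -2.19 ± 0.795, -1.14 ± 0.539 and -1.19 ± 0.627 (SE), in B3gnt4, Kera, B3galt1 and Mgat5b, so at 6 h the fall of Kera was about as large as the difference of B3gnt7. The median of the 113 was 0.14, 0.23, -0.03 and -0.02 at the 4 times, beside -0.14, -0.39, -0.05 and -0.03 over all genes tested. In the receptor-share model the same medians were 0.05, 0.06, 0.00 and -0.02, beside 0.05, 0.04, 0.04 and -0.02.

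**Figure D4:**
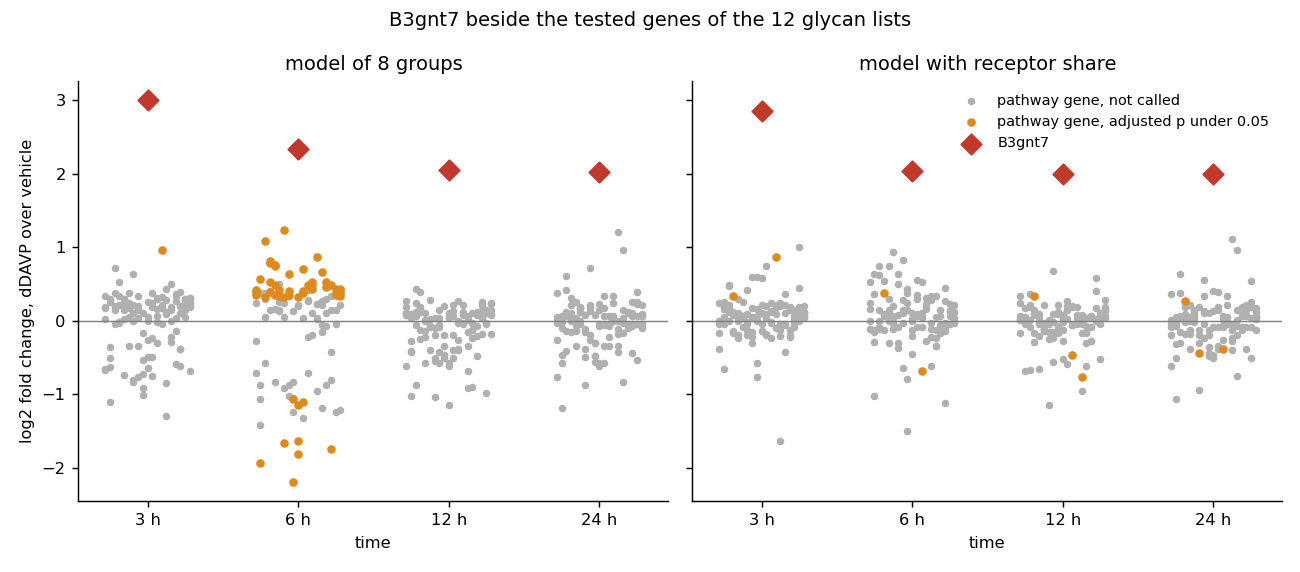
Log2 fold change of dDAVP over vehicle at each time for the 113 tested genes of 12 glycan lists (points, orange where the adjusted p was under 0.05) and for B3gnt7 (diamonds), from the model of 8 groups (left) and with receptor share as a covariate (right). B3gnt7 lies above every pathway gene in both panels, and the 50 pathway genes called at 6 h are 2 in the right panel.

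At 6 h 41 of the 113 rose and 9 fell, together 44.2%, beside 38.1% of all genes. With receptor share in the model 1 rose and 1 fell. The count fell to 2 and 1 without replicate 1 or 2 of dDAVP at 6 h, and to 3, 3 and 12 without replicate 1, 2 or 3 of vehicle at 6 h. It was 32 without replicate 3 of vehicle and 22 without replicate 3 of dDAVP at 3 h, and 21, 21 and 23 without replicates 1, 2 and 3 of dDAVP at 12 h. It was 20, 24 and 20 without replicates 1, 2 and 3 of dDAVP at 24 h, and 19 and 26 without replicates 2 and 3 of vehicle at 24 h. The 38.1% joins both directions, so it is no measure for the split into rises and falls. The median of all genes tested at 6 h was -0.39 in the count model. The lists below are given with these limits, and receptor share was lower in dDAVP at the same time.

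Among the beta-1,4-galactosyltransferases, which add the alternating galactose, 5 of 7 rose at 6 h. B4galt5 and B4galt6, the lactosylceramide synthases, rose by 0.63 ± 0.152 and 0.66 ± 0.171, and B4galt1, B4galt3 and B4galt4 rose by 0.42 to 0.43. None of the 7 was called in the receptor-share model. Of 13 genes of sugar nucleotide supply, 9 rose at 6 h and 0 fell. Uap1l1, a paralogue of Uap1, rose by 0.78 ± 0.128, and had 163 ± 9.8 CPM in dDAVP and 95.3 ± 4.39 CPM in vehicle (adjusted p = 0.001 in edgeR; SD, n = 3). Uap1, which makes UDP-N-acetylglucosamine, rose by 0.53 ± 0.129. Slc35a2 and Slc35a3, the Golgi carriers of UDP-galactose and UDP-N-acetylglucosamine, rose by 0.52 ± 0.144 and 0.35 ± 0.111. Uap1l1 was the 1 pathway gene called higher in dDAVP at all 4 times in the receptor-share model, with 0.34, 0.38, 0.33 and 0.27 at 3, 6, 12 and 24 h (adjusted p = 0.00189, 0.00953, 0.0033 and 0.0204 in edgeR). In the count model it was called at 6 h alone, with 0.53, 0.39 and 0.31 at 3, 12 and 24 h.

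In mucin-type O-glycan synthesis 8 of 17 rose and 2 fell at 6 h. Galnt10, Galnt2 and Galnt1, which start O-glycans on serine and threonine, rose by 0.57 ± 0.112, 0.81 ± 0.162 and 0.87 ± 0.218. Of 8 N-glycan branching genes 3 rose: Mgat4b by 1.23 ± 0.351, Mgat2 by 0.35 ± 0.128 and Mgat4a by 0.34 ± 0.11. Fut8, the core fucosyltransferase, differed by 0.21 ± 0.0903 at 6 h (adjusted p = 0.0628 in edgeR). Of 11 glycolipid genes, 2 of which are B4galt5 and B4galt6, 6 rose and 1 fell. Ugcg, which makes glucosylceramide, rose by 0.70 ± 0.184 and Gal3st1, the cerebroside sulfotransferase, by 0.76 ± 0.226. Of 17 other beta-1,3-glycosyltransferases 7 rose and 3 fell. C1galt1c1, the chaperone of the core 1 synthase, rose by 0.49 ± 0.144, Rfng, a Fringe that modifies Notch, by 0.37 ± 0.118, and B3galnt2 by 0.32 ± 0.123. B3galt1 fell by 1.81 ± 0.551, at 0.307 CPM in dDAVP and 1.10 CPM in vehicle. None of these genes was called at 6 h in the receptor-share model.

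The genes of keratan sulfate, the chain that B3GNT7 extends, gave few calls. Of 5 sulfotransferases 0 were called by edgeR at 6 h, where 3 had an unadjusted p under 0.05 and DESeq2 called 1. Chst2, Chst4, Chst1 and Chst5 differed by -0.95 ± 0.392, -1.07 ± 0.455, -0.92 ± 0.444 and -0.84 ± 0.504 at levels of 2.10, 0.434, 1.03 and 0.370 CPM in dDAVP and 4.09, 0.920, 1.98 and 0.668 CPM in vehicle. Of 6 tested core proteins 1 was called: Kera, the corneal proteoglycan keratocan, fell by 2.19 ± 0.795, at 0.113 CPM in dDAVP and 0.522 CPM in vehicle. Omd, Ogn and Fmod differed by -0.88 ± 0.399, -1.24 ± 0.577 and -1.24 ± 0.653, all under 2 CPM. Of the enzymes of keratan sulfate breakdown, Galns, a sulfatase, and Glb1, the lysosomal beta-galactosidase, differed by 0.05 ± 0.146 and 0.27 ± 0.131 at 6 h without a call. None of the sulfotransferases, core proteins and breakdown enzymes named here was called at 6 h in the receptor-share model, in which Galns was lower in dDAVP at 24 h (-0.44, adjusted p = 0.0194 in edgeR).

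Among the 15 genes that cap or branch lactosamine chains 2 rose and 1 fell at 6 h. Fut1, a maker of the H antigen, rose by 0.33 ± 0.129, St3gal1, a sialyltransferase of core 1, rose by 0.41 ± 0.145, and Fut9, a maker of Lewis X, fell by 1.74 ± 0.522 at 0.209 CPM in dDAVP and 0.727 CPM in vehicle. St6gal1, which adds alpha-2,6 sialic acid to lactosamine, was not called in the count model at any time, with -0.02, -0.22, -0.40 and -0.34 at 3, 6, 12 and 24 h. In the receptor-share model it was called lower in dDAVP at 6, 12 and 24 h, with -0.68, -0.46 and -0.39 (adjusted p = 0.00151, 0.0102 and 0.0357 in edgeR). Of 9 galectins, which bind lactosamine chains, 3 rose at 6 h. Lgals9 rose by 1.09 ± 0.169, with 35.8 ± 2.1 CPM in dDAVP and 16.8 ± 0.919 CPM in vehicle (adjusted p = 0.00052 in edgeR; SD, n = 3). Lgals1 and Lgals3 rose by 0.52 ± 0.15 and 0.42 ± 0.133, and Lgals4 differed by -0.28 ± 0.307. In the receptor-share model Lgals9 was at 0.62 (adjusted p = 0.0537 in edgeR), just short of the threshold.

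In vehicle alone, 35 of the 113 pathway genes were higher and 10 lower at 24 h than at 3 h, together 39.8% beside 38.0% of all genes, and 2 and 0 in the receptor-share model. Galns and Glb1 were among those higher, at 0.72 ± 0.146 and 0.67 ± 0.131 (adjusted p = 0.00375 and 0.00294 in edgeR). All 5 genes of the breakdown list were called higher. In the other direction 4 of the 5 sulfotransferases fell, Chst1 by 1.24 ± 0.442, Chst2 by 1.24 ± 0.387, Chst4 by 1.75 ± 0.458 and Chst5 by 1.32 ± 0.47 on the log2 scale. None of the genes of these 2 lists was called in the receptor-share model. The count was 5 and 29 without replicate 1 or 2 of vehicle at 3 h, and 12 and 14 without replicate 1 or 2 of vehicle at 24 h. The 38.0% joins both directions, so it is no measure for the split into higher and lower. In the count model the median of all genes tested was -0.44 for vehicle at 24 h against 3 h.

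The genes whose CPM moved most like B3gnt7 over the 24 libraries were Pde4b (Pearson r = 0.96), Aqp2 (0.958), Cdk18 (0.956), Add3 (0.956), Arhgef3 (0.949) and Adora1 (0.946), of 12746 genes compared on log2 CPM. Over the 8 group means their r lay between 0.964 and 0.981. Pde4b encodes a phosphodiesterase that degrades cAMP, Cdk18 a cyclin-dependent kinase, Add3 an adducin of the membrane skeleton, Arhgef3 a guanine nucleotide exchange factor and Adora1 an adenosine receptor. Their dDAVP effects at 3 h were 1.98 for Pde4b, 1.11 for Cdk18, 1.39 for Add3, 1.2 for Arhgef3 and 0.74 for Adora1. At 24 h they were 1.76, 0.44, 0.63, 1.23 and 0.49 in the same order. B3gnt3 stood at rank 235 with r = 0.723 and B3gnt2 at rank 7893 with r = 0.347. The points share libraries and the treatment contrast, so r is a description.

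The genes beside B3gnt7 had smaller values. Within 100 kb of it 5 genes were tested, Armc9, Ncl, C130036L24Rik, Gm45908 and Nmur1. At 3, 12 and 24 h none was called in edgeR, and their log2 differences lay between -0.87 and 0.23, between -1.02 and 0.20, and between -0.17 and 0.41. At 6 h Ncl, the gene of nucleolin, rose by 0.37 and Nmur1, a neuromedin U receptor, fell by 1.51 on the log2 scale, and in the receptor-share model none was called at any time. In the count model 0.484%, 38.1%, 0.0773% and 0.0841% of all genes were called at 3, 6, 12 and 24 h. Counts of calls among 5 genes therefore say little about them.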

How the data were processed

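RNA from 24 libraries of mpkCCD cells was measured as cDNA made with SMART-Seq HT and libraries made with Nextera reagents, per the labels. The authors deposited estimated counts per Ensembl gene without normalization, and a table of TPM in the same layout. The submitters' processing notes list Salmon 0.14.10 and the build GRCm38.p6, and how transcripts were summed to genes is not given in the sources used here. Each column was tied to 1 sample by its labels, with 0 unused.

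After rounding to whole numbers, the deposited estimated counts went into edgeR 4.0.16 under R 4.3.3, and limma 3.58.1 served the fits on TPM. Genes were kept by filterByExpr (29743 of 54432), library sizes were scaled by TMM, and 1 mean per group was fitted to 24 libraries of 17.25 to 27.64 M counts. The common biological coefficient of variation was 0.191. Each p came from the quasi-likelihood F test, adjusted by the Benjamini-Hochberg method over all genes tested, with 0.05 as the threshold. The step was checked on simulated data. Fold changes compare libraries within a gene; TPM was used between genes.

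Members, gene lists and tests were chosen with earlier results of these data known. The test of the members over time in vehicle is not reported, since those libraries enter the effects that chose them. Named were the 4 members, the other family genes, up to 4 genes with the smallest p of each of the other lists, every called gene of a list with 5 or fewer at a time, the 6 genes most like B3gnt7 among those with at least 5 CPM in a group, and Aqp2. Genes beside B3gnt7 and those named as overlapping were chosen by position. Gm24245 was named after its values were seen. A few genes named by this rule are not reported here.

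Alternatives were median-of-ratios size factors, DESeq2 1.42.0, no filter, a filter of 5 CPM, a replicate block, receptor share as a covariate, limma on log2(TPM + 1) and log2(TPM + 0.1), a fit to the compared libraries alone, a stricter threshold (0.01), and each library left out. A fit on TPM rescaled to protein-coding genes was added after seeing the data. Within groups, the chi-square per gene of 2 replicates was 2.63 to 40.55, above sampling noise. Plots used matplotlib 3.10.9 (Python 3.11.15).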

Additional observations from a re-analysis of the deposited data

Results flagged for a closer look

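For Galnt1 the dDAVP effect differed between the 4 times by a test of the difference itself (F test of 3 contrasts in edgeR, adjusted p = 0.043), with 0.87 ± 0.218 at 6 h and -0.69 ± 0.22 at 12 h on the log2 scale (0.33 and -0.77 in the receptor-share model). For Mgat4b the same test gave an adjusted p of 0.0462 in edgeR, with 1.23 ± 0.351 at 6 h and -1.04 ± 0.351 at 12 h (0.64 and -1.15 in the receptor-share model). Of all genes, 0.343% passed this test, which is not given for the receptor-share model. At 12 h neither gene was called in the count model (adjusted p = 0.891 for Galnt1 and 0.917 for Mgat4b in edgeR). In the receptor-share model Galnt1 was called lower at 12 h and Mgat4b was not (adjusted p = 0.0312 and 0.115 in edgeR). The groups of Galnt1 did not overlap at 12 h. Those of Mgat4b did, with 48.4 CPM in the highest dDAVP library and 44.9 CPM in the lowest vehicle library. Single libraries were not tested for standing apart, since each group held 3.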

How the results depend on the processing

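The dDAVP difference of B3gnt7 was above 0 under each of the 34 alternatives at each time. Leaving out 1 library at a time gave 2.79 to 3.13 at 3 h, 2.24 to 2.37 at 6 h, 1.93 to 2.20 at 12 h and 1.96 to 2.14 at 24 h. Against the small replicate spread at 6 h, the value moved to 2.45 with median-of-ratios size factors and with DESeq2, 2.03 with the 5 CPM filter, 2.04 with receptor share and 2.18 with only the libraries compared. On log2(TPM + 1) it was 2.10, 1.32, 1.54 and 1.51 at 3, 6, 12 and 24 h, on log2(TPM + 0.1) 2.59, 1.72 and 1.88 at 3, 6 and 12 h, and on TPM of protein-coding genes 2.46, 1.69, 1.75 and 1.76. B3gnt7 lay between 1.36 and 2.28 TPM in vehicle libraries, so an added 1 by itself makes its log2 ratio smaller. How far this accounts for the lower values, and what else does, was not tested.

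B3gnt7 in vehicle at 24 h against 3 h ran between 0.43 and 0.76 with 1 library left out. It was 0.34 with receptor share, 0.10 on log2(TPM + 1), 0.15 on log2(TPM + 0.1), 0.53 with only the libraries compared and 0.21 on TPM of protein-coding genes. On the 2 TPM scales signs were opposite for B3gnt2 at 3 h (-0.08 and -0.09) and 12 h (-0.03), for B3gnt3 at 3 h (-0.04) and 6 h (-0.09), and in vehicle at 24 h against 3 h for B3gnt2 (-0.08) and B3gnt3 (-0.17). On TPM of protein-coding genes they were opposite for B3gnt2 at 12 h (-0.03), B3gnt5 at 24 h (-0.01) and B3gnt3 in vehicle (-0.07), and on log2(TPM + 0.1) for B3gnt5 at 24 h (-0.06). With receptor share they were opposite for B3gnt5 at 6 h (0.14) and, in vehicle, for B3gnt3 (-0.01) and B3gnt5 (0.28). With only the libraries compared B3gnt2 at 12 h was -0.01. With 1 library left out B3gnt2 reached -0.03 at 12 h and 0.05 at 24 h, and B3gnt5 reached -0.39 at 24 h. The cause was not tested.

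Pathway genes called at 3 h numbered 0 to 3 with 1 library left out, 3 with the 5 CPM filter, 2 with receptor share, and 0 on log2(TPM + 1), on log2(TPM + 0.1) and with only the libraries compared. At 6 h they numbered 1 to 60 with 1 library left out, 17 without a filter, 9 with the 5 CPM filter, 2 with receptor share, 18 and 33 on log2(TPM + 1) and log2(TPM + 0.1), 9 on TPM of protein-coding genes and 4 at a threshold of 0.01. At 12 h they numbered 0 to 1 with 1 library left out (1 without replicate 2 of vehicle at 12 h), 2 with the 5 CPM filter and 3 with receptor share; at 24 h 3 with each of these 2 settings. In vehicle they numbered 5 to 59 with 1 library left out, 23 with the 5 CPM filter, 2 with receptor share, 23 on TPM of protein-coding genes and 14 at a threshold of 0.01.

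Replicate numbers were not used to pair the libraries in the main fit. Deviations of same-numbered libraries from their group means had correlations between -0.416 and 0.581, with 5 of 12 over 0.1. With 3 libraries a group, these values cannot decide whether same-numbered libraries belong together. A replicate block gave 3.00, 2.34, 2.06 and 2.02 for B3gnt7, 3 pathway genes called at 3 h and 58 at 6 h, and 0.64 for B3gnt7 in vehicle at 24 h against 3 h.

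B3gnt5, at 3 to 27 counts a library, is limited by depth, and its transcripts could not be told apart from gene sums.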
